A study of Mus musculus with 11 samples.

Results

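The genes described here are 10 markers of injured kidney tubules: Lcn2, Havcr1, Clu, Spp1, Vcam1, Cd44, Dcdc2a, Cd24a, Prom1 and Anxa2. They were taken by name from the 24914 rows of the gene count files (23401 loci once rows with identical counts were joined). All 10 were in the files, and all 10 passed the filter on low counts, which left 14380 loci for testing. They were followed in 11 libraries of whole kidney messenger RNA from 129X1/SvJ mice aged 5.5 weeks. The HET PBS group held 3 libraries of Col4a3+/- kidney treated with PBS, the KO PBS group 4 libraries of Col4a3 -/- kidney treated with PBS, and the KO antimiR-21 group 4 libraries of Col4a3 -/- kidney treated with antimiR-21, an inhibitor of the microRNA miR-21. No group was wild type, so the reference for the knockout is a kidney with 1 disrupted Col4a3 allele, and no heterozygous group received antimiR-21. Loss of Col4a3, a chain of the type IV collagen of the glomerular filter, models Alport syndrome, a progressive kidney disease.

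Injured tubule cells lose parts of their transport programme and switch on or raise a set of genes, not all of them low in healthy epithelium. Some encode secreted proteins that appear in urine or bind debris (Lcn2, Clu, Spp1), some encode receptors and adhesion proteins of the cell surface (Havcr1, Vcam1, Cd44, Cd24a, Prom1), and some encode proteins that bind microtubules or membranes (Dcdc2a, Anxa2). Lcn2 and Havcr1 proteins are used as urinary markers of kidney injury, while Vcam1, Dcdc2a, Cd24a and Prom1 are known from tubule cells that fail to recover fully. Several of these genes are also used by other cells: Vcam1 by activated endothelium, Cd44 by leukocytes and fibroblasts, and Spp1 by macrophages. In whole kidney RNA, a change in the number of cells of a type and a change in the RNA per cell cannot be told apart.

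After joining, libraries held between 17.9 and 39.7 M counts. Levels are given as CPM, that is, counts relative to a TMM-scaled library size, and differences as log2 values with their standard error (SE). Reads of Col4a3 could not be separated from those of its neighbour Col4a4, and their joint locus ran from 870.1 to 1270.8 CPM in HET PBS, from 606.5 to 996.8 in KO PBS and from 515.1 to 808.9 in KO antimiR-21, which does not check the genotype labels. Ddx3y, a Y-linked gene, was above 5 CPM in HET PBS replicates 2 and 3, KO PBS replicates 3 and 4 and KO antimiR-21 replicate 4, and near or at 0 in the other 6 libraries. The labels give no sex. KO PBS replicate 1 stood apart on these markers: it was the highest of the 11 libraries for 8 of the 10 genes and among the top 3 for all 10. Values with and without it are given where it matters. The libraries of a group are numbered as replicates in the labels, and the p-values measure the spread between these libraries.

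All 10 markers had a higher mean in KO PBS than in HET PBS kidney, led by Lcn2 at 16.8 times, Cd44 at 3.25 times and Vcam1 at 2.89 times the HET PBS mean. The median log2 difference of the 10 genes was 1.32, beside -0.02 over all loci tested. In 5 of the 10 genes (Lcn2, Vcam1, Cd44, Dcdc2a and Anxa2) every KO PBS library was above every HET PBS library, a pattern found in 3.55% of all loci. By edgeR's quasi-likelihood test 8 of 10 were higher at an unadjusted p under 0.05, beside 4.21% of all loci. None of the 10 passed 0.05 after Benjamini-Hochberg adjustment over all loci, as was true of the whole table (0% of loci called). DESeq2 called 4 of the 10 (Lcn2, Vcam1, Cd44 and Dcdc2a), beside 84 of all 14380 loci. Limma-voom and limma on the authors' log2 matrix called 0 markers. Leaving out HET PBS replicate 2 lowered the count at an unadjusted p under 0.05 to 5, and leaving out HET PBS replicate 1 raised the count without overlap to 8. Without KO PBS replicate 1 the count at an unadjusted p under 0.05 was 6, and that without overlap stayed at 5. The log2 differences were then 3.72 for Lcn2, 1.23 for Cd44 and Havcr1, 1.11 for Dcdc2a and 1.02 for Vcam1. The order after Lcn2 thus depended on that library. The plot of levels by library shows how each gene is spread.

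**Figure D1:**
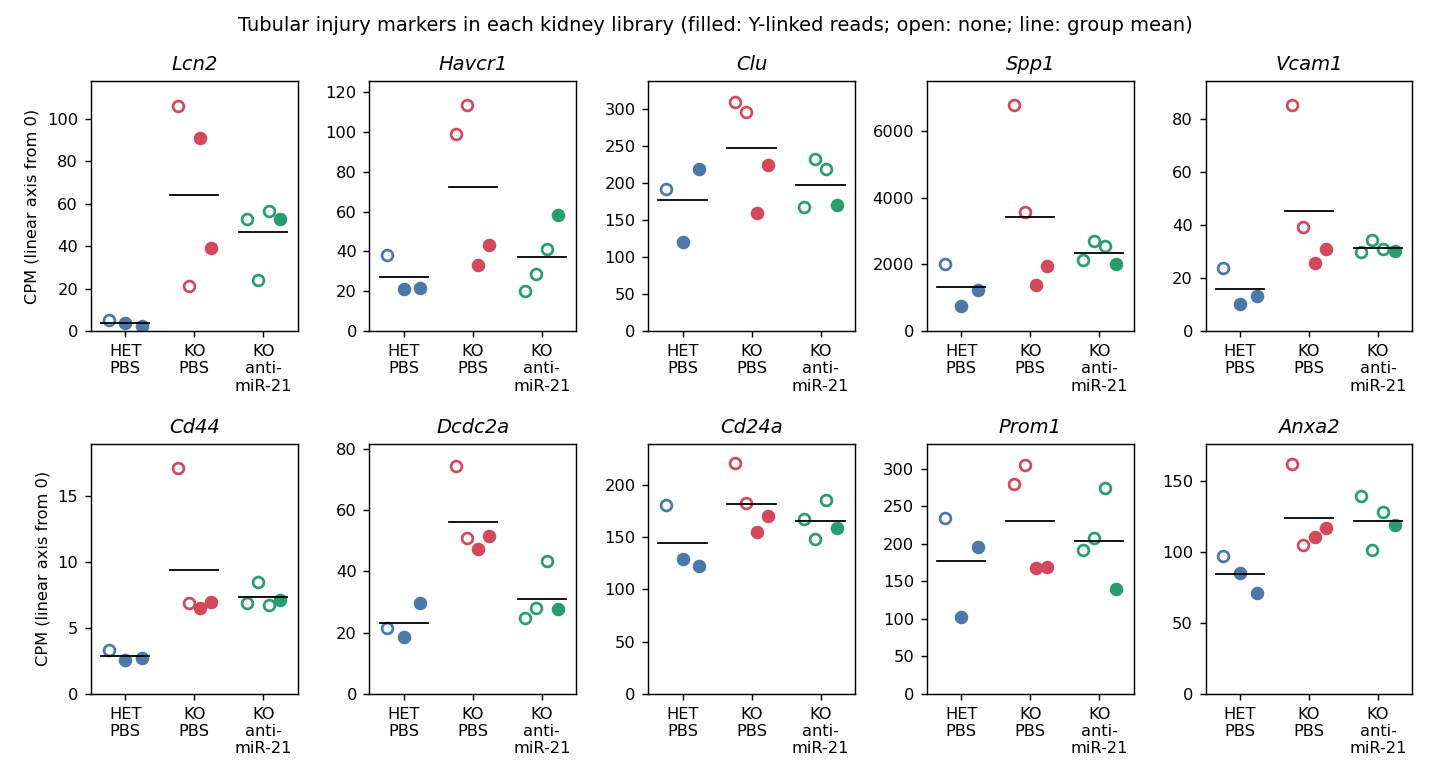
CPM of each of the 10 markers (linear vertical axes starting at 0) in the HET PBS, KO PBS and KO antimiR-21 groups. Each circle is 1 library, filled where Ddx3y was above 5 CPM and open where it was not, and the line is the group mean. KO PBS replicate 1, the leftmost red circle, is the highest point in 8 of the 10 panels.

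Among the secreted proteins, Lcn2 encodes lipocalin-2 (NGAL), which binds bacterial iron carriers and is released by stressed distal tubules. The HET PBS levels were 5.24, 3.95 and 2.27 CPM, those of KO PBS 105.8, 21.1, 90.8 and 39 CPM, and those of KO antimiR-21 52.7, 24.3, 56.6 and 52.7 CPM. The lowest knockout library was thus far above the highest heterozygous one, while the 4 KO PBS libraries differed widely among themselves. KO PBS exceeded HET PBS by 4.07 on the log2 scale (SE 0.628, 95% interval 2.67 to 5.47, adjusted p = 0.247 by edgeR), and only 2 of the 14380 loci had a smaller p. With 1 library left out at a time the difference ran from 3.72 to 4.37. Lcn2 passed the adjusted threshold without KO PBS replicate 2 (adjusted p = 0.0437), and its adjusted p over all alternatives ran from 1.2e-08 with DESeq2 to 1. Lcn2 lies on chromosome 2 from 32384633 to 32388252 on the minus strand (GRCm38, GENCODE vM21).

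Spp1 encodes osteopontin, a secreted phosphoprotein that binds integrins and CD44 and limits crystal growth in urine. It was the most abundant of the markers per kilobase of exon in every group. Its levels were 2010.4, 749.3 and 1242.4 CPM in HET PBS, 6767, 3565.3, 1394.4 and 1950.8 CPM in KO PBS and 2146, 2709.4, 2555.3 and 2002.1 CPM in KO antimiR-21. The KO PBS and HET PBS ranges overlapped, because KO PBS replicates 3 and 4 lay below HET PBS replicate 1. On the log2 scale KO PBS differed from HET PBS by 1.36 (SE 0.51, adjusted p = 0.647 by edgeR), and it was 0.79 without KO PBS replicate 1.

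Clu encodes clusterin, a secreted chaperone that binds misfolded proteins and cell debris. Its levels were 192.3, 119.8 and 218.6 CPM in HET PBS, 308.9, 295.1, 159.2 and 224.1 CPM in KO PBS and 167.8, 232, 218.3 and 170.2 CPM in KO antimiR-21. KO PBS replicates 1 and 2 were above all other libraries, and replicate 3 was below 2 of the HET PBS libraries. The difference of 0.48 (SE 0.251, 95% interval -0.07 to 1.03, adjusted p = 0.766 by edgeR) between KO PBS and HET PBS did not exceed the spread between replicates.

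At the cell surface, Havcr1 encodes KIM-1, a phosphatidylserine receptor by which injured proximal tubule cells take up dying cells. Its levels were 38.1, 21.4 and 21.7 CPM in HET PBS, 98.7, 113.7, 33 and 43.2 CPM in KO PBS and 20.1, 28.5, 41.2 and 58.5 CPM in KO antimiR-21. The KO PBS libraries fell into a high pair, replicates 1 and 2 without Y-linked reads, and a low pair, replicates 3 and 4 with them. For Havcr1 the log2 difference between KO PBS and HET PBS was 1.41 (SE 0.503, adjusted p = 0.609 by edgeR), with overlapping ranges.

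Vcam1 encodes an adhesion receptor for leukocyte integrins that is also displayed by injured proximal tubule cells. It stood at 23.9, 10.2 and 13.2 CPM in HET PBS, at 85.4, 39.3, 25.6 and 31 CPM in KO PBS and at 30.1, 34.3, 30.9 and 30.2 CPM in KO antimiR-21. All 8 knockout libraries were above the 3 heterozygous ones, and the antimiR-21 libraries lay close together. KO PBS exceeded HET PBS by 1.53 on the log2 scale (SE 0.417, adjusted p = 0.459 by edgeR), and it was at least 1.02 with any 1 library left out.

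Cd44 encodes the main receptor for hyaluronan, a matrix sugar polymer, and also binds osteopontin. It was the lowest of the markers per kilobase, at 3.35, 2.58 and 2.76 CPM in HET PBS, 17.2, 6.91, 6.52 and 6.95 CPM in KO PBS and 6.89, 8.51, 6.77 and 7.17 CPM in KO antimiR-21. Apart from KO PBS replicate 1, the knockout libraries of both treatments occupied a narrow range above the heterozygous ones. Its log2 difference between KO PBS and HET PBS was 1.7 (SE 0.333, adjusted p = 0.341 by edgeR) and ran from 1.23 to 1.84 with 1 library left out.

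Cd24a and Prom1 encode CD24 and prominin-1 (CD133), surface proteins that mark scattered tubule cells with progenitor features and that rise in regenerating tubules. Cd24a stood at 180.2, 129.1 and 122.4 CPM in HET PBS, at 220.6, 182.3, 154.7 and 170.1 CPM in KO PBS and at 167.4, 148.2, 185.7 and 158.2 CPM in KO antimiR-21. Its difference of 0.34 (SE 0.153, adjusted p = 0.716 by edgeR) between KO PBS and HET PBS was the smallest of the 10 and kept an unadjusted p under 0.05 in 5 of the 11 fits that left out 1 library. Prom1 stood at 233.9, 102.4 and 195.3 CPM in HET PBS, at 280.4, 304.6, 168 and 169 CPM in KO PBS and at 192.4, 208, 275 and 139.9 CPM in KO antimiR-21. The 3 groups overlapped for Prom1, and its difference of 0.38 (SE 0.322, 95% interval -0.33 to 1.09, adjusted p = 0.843 by edgeR) did not exceed the spread between replicates.

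Of the intracellular proteins, Dcdc2a encodes a doublecortin-domain protein that binds microtubules and is found in primary cilia. It stood at 21.5, 18.5 and 29.7 CPM in HET PBS, at 74.3, 51, 47.3 and 51.7 CPM in KO PBS and at 24.9, 28.2, 43.3 and 27.8 CPM in KO antimiR-21. The KO PBS libraries were above all libraries of both other groups. Relative to HET PBS the log2 difference of KO PBS was 1.27 (SE 0.232, 95% interval 0.76 to 1.78, adjusted p = 0.295 by edgeR).

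Anxa2 encodes annexin A2, a calcium-dependent membrane-binding protein that pairs with S100A10 and promotes plasmin formation at the cell surface. It stood at 97.7, 85.6 and 71.2 CPM in HET PBS, at 162.1, 105.1, 111.1 and 117.3 CPM in KO PBS and at 139.9, 101.4, 128.4 and 119.6 CPM in KO antimiR-21. Each knockout library exceeded each heterozygous one, by a small margin at the nearest values. For Anxa2 the log2 difference of KO PBS from HET PBS was 0.55 (SE 0.164, adjusted p = 0.508 by edgeR).

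The promoters of 4 genes whose knockout and heterozygous ranges did not overlap are shown, since these genes separated KO PBS from HET PBS library by library and had a RefSeq promoter. They cover the 250 bases before the RefSeq start (GRCm38.p6), 5′ to 3′ on the gene's strand, with every motif match in capitals. The motifs searched on both strands were kappaB (GGG, 5 bases of any kind, CC), AP-1 (TGANTCA), C/EBP (TTNNGCAA), STAT (TTCNNNGAA) and the TATA box (TATAAA).
Lcn2 (chr2:32387740-32387989, minus strand): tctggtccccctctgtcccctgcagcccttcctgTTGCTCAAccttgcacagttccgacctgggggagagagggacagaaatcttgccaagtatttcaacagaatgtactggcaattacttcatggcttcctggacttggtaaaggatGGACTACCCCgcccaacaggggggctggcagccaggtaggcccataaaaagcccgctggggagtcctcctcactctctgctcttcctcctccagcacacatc
Cd44 (chr2:102901666-102901915, minus strand): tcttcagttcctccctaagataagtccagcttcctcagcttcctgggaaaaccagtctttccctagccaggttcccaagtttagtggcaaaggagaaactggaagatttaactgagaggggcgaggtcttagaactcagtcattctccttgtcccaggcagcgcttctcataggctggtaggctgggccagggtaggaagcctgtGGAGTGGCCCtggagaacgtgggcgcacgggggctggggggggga
Dcdc2a (chr13:25055754-25056003, plus strand): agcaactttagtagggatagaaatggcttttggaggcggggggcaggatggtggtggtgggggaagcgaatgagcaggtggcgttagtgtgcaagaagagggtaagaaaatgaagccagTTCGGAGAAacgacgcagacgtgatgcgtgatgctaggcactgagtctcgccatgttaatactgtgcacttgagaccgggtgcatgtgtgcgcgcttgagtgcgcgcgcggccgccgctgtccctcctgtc
Anxa2 (chr9:69453433-69453682, plus strand): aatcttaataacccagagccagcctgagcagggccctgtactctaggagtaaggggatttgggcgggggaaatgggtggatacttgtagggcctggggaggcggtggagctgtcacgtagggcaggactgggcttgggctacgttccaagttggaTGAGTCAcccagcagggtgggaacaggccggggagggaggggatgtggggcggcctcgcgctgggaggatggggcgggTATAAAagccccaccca

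The Lcn2 promoter held a C/EBP match from -216 to -209 and a kappaB match from -102 to -93 relative to the start. That of Cd44 held a kappaB match from -45 to -36, that of Dcdc2a a STAT match from -131 to -123, and that of Anxa2 an AP-1 match from -95 to -89 and a TATA box from -17 to -12. Windows of 300 bases (250 before and 50 after the start) were found for 7 of the 10 genes, 11 windows in all. Past the start, in bases not printed, the Cd44 window held another kappaB match from 1 to 10 and the Anxa2 window one from 8 to 17. Among the 32851 RefSeq promoter windows of 300 bases 50.8% held kappaB, 7.81% AP-1, 10.8% C/EBP, 8.3% STAT and 13.6% the TATA box. No motif was common to the 4 printed promoters. A match is a run of letters and says nothing on binding.

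**Figure D2:**
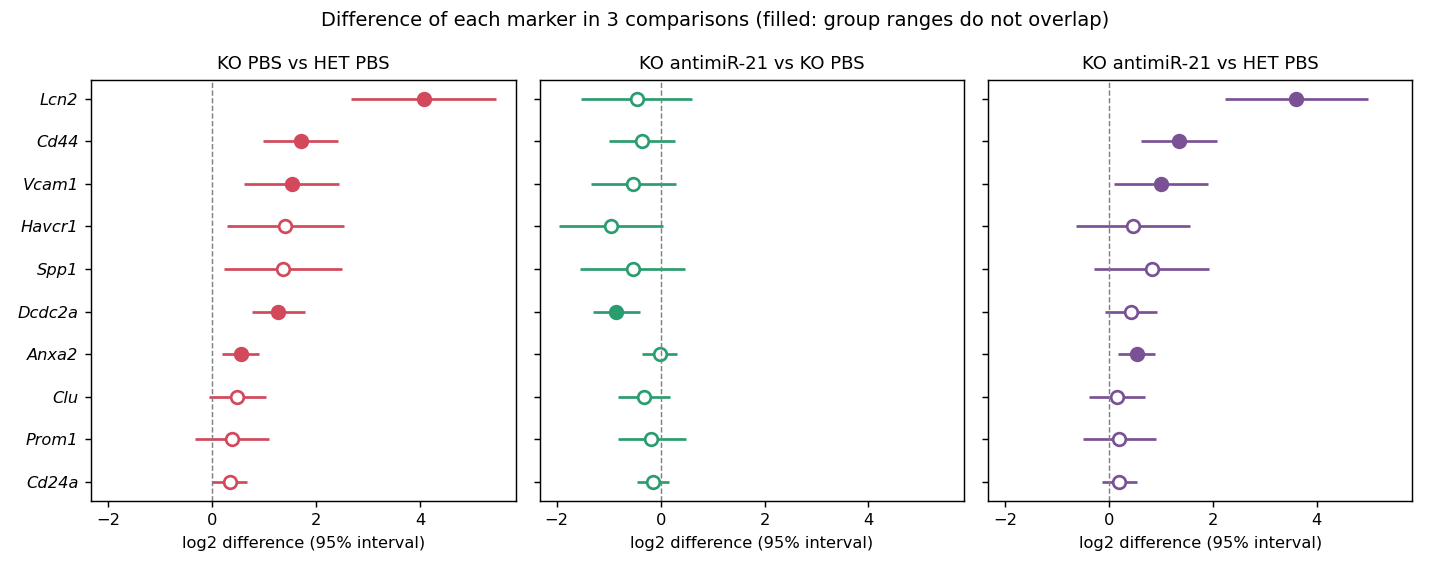
log2 difference of each marker (horizontal axis) with its 95% interval in the 3 comparisons, genes ordered by the difference of KO PBS from HET PBS. Filled points mark genes whose CPM ranges do not overlap between the groups: 5 in KO PBS against HET PBS, 1 (Dcdc2a) in KO antimiR-21 against KO PBS and 4 in KO antimiR-21 against HET PBS.

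The effect of the inhibitor was asked by comparing KO antimiR-21 with KO PBS. The mean of all 10 markers was lower with antimiR-21, with a median log2 difference of -0.41 beside 0 over all loci, but only for Dcdc2a did the group ranges not overlap. Its 4 antimiR-21 libraries (24.9 to 43.3 CPM) all lay below the 4 KO PBS libraries (47.3 to 74.3 CPM), and its mean was 0.555 of the KO PBS mean. Lower ranges without overlap were found in 1.95% of all loci. The log2 difference of Dcdc2a was -0.85 (SE 0.209, 95% interval -1.31 to -0.39, adjusted p = 0.327 by edgeR). It ran from -1.05 to -0.69 with 1 library left out and kept an unadjusted p under 0.05 in all 11 of those fits.

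In this comparison 1 of the 10 markers was lower at an unadjusted p under 0.05, beside 3.46% of all loci, and none passed after adjustment (0% of loci called by edgeR). DESeq2 called 1 marker, Dcdc2a (adjusted p = 0.0174), beside 138 of all 14380 loci. The adjusted p of Dcdc2a over all alternatives reached 1. Limma-voom and limma on the authors' matrix called 0 markers. Havcr1 had the largest difference by size, -0.96 (SE 0.451, 95% interval -1.96 to 0.05, adjusted p = 0.632 by edgeR), with overlapping ranges. Havcr1 came under an unadjusted p of 0.05 without KO PBS replicate 3 (-1.2), without KO PBS replicate 4 (-1.14) and without KO antimiR-21 replicate 4 (-1.28), which gave counts of 3, 2 and 2 markers. The count of 3 included Clu.

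For the others the intervals reached from a reduction to an increase: Vcam1 differed by -0.53 (-1.35 to 0.29), Spp1 by -0.54 (-1.55 to 0.47), Lcn2 by -0.46 (-1.53 to 0.61), Cd44 by -0.36 (-0.99 to 0.28) and Clu by -0.32 (-0.83 to 0.18). Prom1 (-0.18), Cd24a (-0.14) and Anxa2 (-0.02) differed least. Leaving out KO PBS replicate 1 turned the sign for Spp1 (0.03), Cd44 (0.11) and Anxa2 (0.14) and brought Vcam1 to -0.02, Cd24a to -0.04, Prom1 to -0.07, Lcn2 to -0.11 and Clu to -0.2. Havcr1 (-0.77) and Dcdc2a (-0.69) kept the largest negative differences without it. The sign of Anxa2 also turned without KO antimiR-21 replicate 2 (0.05). The plot of differences with libraries left out shows these ranges.

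**Figure D3:**
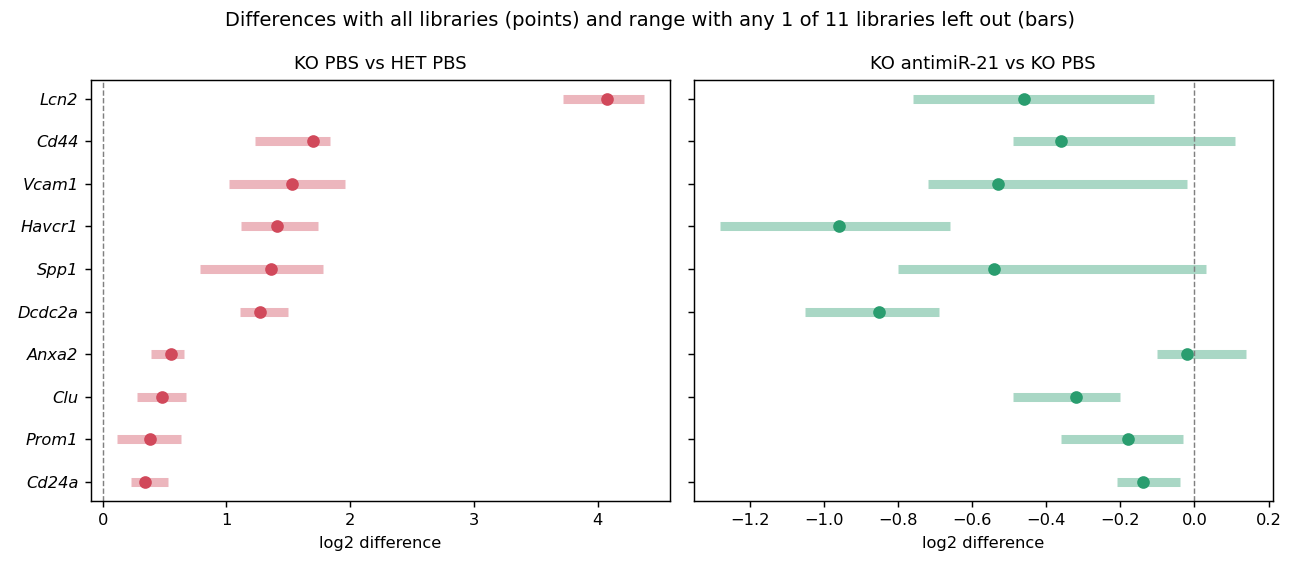
log2 difference of each marker (horizontal axis, a different scale in each panel) with all 11 libraries (points) and the range when any 1 library is left out (bars). In KO PBS against HET PBS all bars stay above 0, and in KO antimiR-21 against KO PBS the bars of Spp1, Cd44 and Anxa2 cross it.

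The inhibited microRNA acts by pairing its seed, bases 2 to 8, with sites in target transcripts. The mature mouse miR-21a-5p, with its seed in capitals, is shown because the seed decides which sites are read.
miR-21a-5p: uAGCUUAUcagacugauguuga

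Its 7-base match, ATAAGCT, was not present in the longest annotated 3′ UTR of any of the 10 markers (0 of 10), which ran from 232 bases in Lcn2 to 5188 in Dcdc2a. The match was found in 8.74% of the 9784 tested genes with such a UTR, whose median length was 1388 bases. This search was added after the data were seen, and it covers only these letters in these UTRs.

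Compared with HET PBS, the antimiR-21 treated knockouts still had higher Lcn2 at 12.2 times, Cd44 at 2.54 times, Vcam1 at 2 times and Anxa2 at 1.44 times the heterozygous mean. The ranges of these 4 genes did not overlap (3.88% of all loci), and the same 4 were higher at an unadjusted p under 0.05 (5.04% of all loci). Lcn2, Cd44 and Anxa2 kept that in all 11 fits that left out 1 library, and Vcam1 in 5: it lost it without HET PBS replicate 2 or 3 and without any 1 of the 4 KO antimiR-21 libraries. The log2 differences were 3.6 for Lcn2 (SE 0.616, adjusted p = 0.364), 1.34 for Cd44 (SE 0.331, adjusted p = 0.365), 1 for Vcam1 (SE 0.411, adjusted p = 0.59) and 0.53 for Anxa2 (SE 0.164, adjusted p = 0.505), all by edgeR. No marker was called by edgeR, which called 1 locus (0.00695%), Fcrls, an Fc receptor-like gene named here after its value was seen. DESeq2 called 2 markers, Lcn2 and Cd44, beside 74 of all 14380 loci. Limma-voom and limma on the authors' matrix called 0 markers. Cd44 passed with edgeR without KO PBS replicate 1 (adjusted p = 0.0265), a library that enters this comparison only through the shared fit, and its adjusted p over the alternatives ran from 0.0208 to 0.992.

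The other 6 markers overlapped between the treated knockouts and the heterozygotes. Spp1 differed by 0.82 (95% interval -0.29 to 1.93), Havcr1 by 0.46 (-0.64 to 1.55), Dcdc2a by 0.42 (-0.08 to 0.92), Cd24a by 0.2 (-0.14 to 0.53), Prom1 by 0.2 (-0.51 to 0.91) and Clu by 0.16 (-0.39 to 0.7). For all 10 genes the antimiR-21 mean lay between the HET PBS and KO PBS means. The comparisons share the KO PBS and HET PBS libraries, so this order is a description. It did not hold for every gene under the alternatives. Without KO PBS replicate 1, KO antimiR-21 was above KO PBS for Spp1 (0.03), Cd44 (0.11) and Anxa2 (0.14). With a covariate for Y-linked reads, it was below HET PBS for Clu (-0.02) and Prom1 (-0.09).

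On a per-length scale, CPM per kilobase of exon, the group means in HET PBS ran from 809.5 for Spp1 through 55.8 for Cd24a, 51.5 for Clu, 24.7 for Prom1, 22.7 for Anxa2 and 11.7 for Havcr1 to 2.81 for Dcdc2a, 1.77 for Vcam1, 1.46 for Lcn2 and 0.427 for Cd44. In KO PBS, Spp1 stood at 2074.9 and Cd44 at 1.39 CPM per kilobase. Lcn2 went from ninth in HET PBS to 24.5 CPM per kilobase in KO PBS, above Dcdc2a at 6.77 and Vcam1 at 5.11 and below Havcr1 at 31.2. In KO antimiR-21 Lcn2 stood at 17.8 and Havcr1 at 16.1 CPM per kilobase. Among neighbours in the HET PBS order, the ranges over libraries overlapped between Cd24a and Clu, Prom1 and Anxa2, Dcdc2a and Vcam1, and Vcam1 and Lcn2.

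The 4 KO PBS libraries differed from each other along the presence of Y-linked reads. For 6 of the 10 markers (Havcr1, Clu, Spp1, Vcam1, Cd24a and Prom1) both libraries without Y-linked reads were above both with them, an order found in 22.6% of all loci. In HET PBS the single library without Y-linked reads, replicate 1, was the highest of the 3 for 8 markers, beside 38% of all loci. In the 3 and 1 libraries of KO antimiR-21 this held for 2 markers, Spp1 and Prom1, beside 37.4% of loci. These sets of libraries were defined from the data and are not groups of the study.

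The KO PBS mean was above the HET PBS mean in both sets for each marker. The log2 ratio of means was 3.6 without and 4.38 with Y-linked reads for Lcn2, and 1.85 and 1.34 for Cd44. It was 1.38 and 1.28 for Vcam1 and 1.54 and 1.04 for Dcdc2a. The smallest ratios were 0.16 without Y-linked reads for Cd24a and 0.18 with them for Clu and Prom1. The ratios without Y-linked reads rest on 1 HET PBS library. The difference of KO antimiR-21 from KO PBS was -0.96 without and -0.83 with Y-linked reads for Dcdc2a. For Havcr1 it was -1.83 without Y-linked reads (means of 106.2 CPM in 2 KO PBS and 30 CPM in 3 KO antimiR-21 libraries) and 0.62 with them (38.1 CPM in 2 KO PBS libraries and 58.5 CPM in 1 KO antimiR-21 library). For Spp1 it was -1.06 and 0.26. The interaction was tested after these values were seen: it was 2.44 for Havcr1 (adjusted p = 0.267 over all loci by edgeR) and 1.32 for Spp1 (adjusted p = 0.353), and none of the 20 interactions of the 10 markers in these comparisons passed the adjusted threshold. Since 1 treated library carried Y-linked reads, that library and the presence of Y-linked reads cannot be told apart in this comparison.

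**Figure D4:**
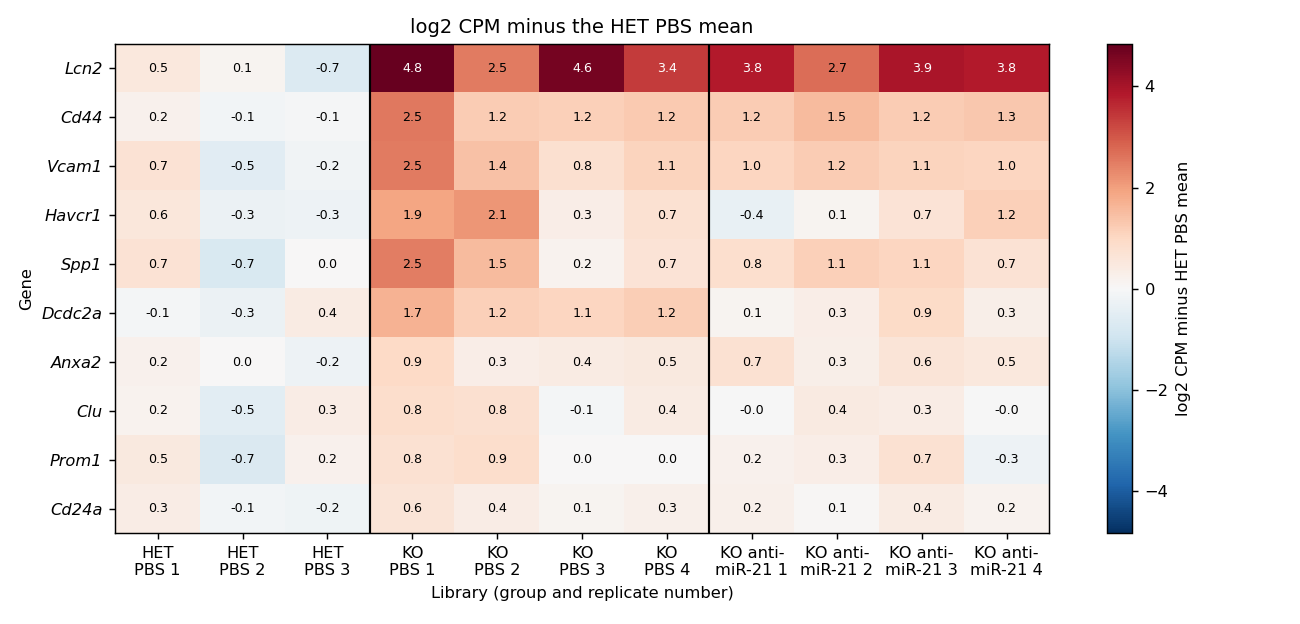
log2 CPM of each marker minus its HET PBS mean (colour and printed value), with genes in rows and the 11 libraries in columns, vertical lines between the groups. KO PBS replicate 1 has the highest value of its row in 8 of the 10 rows, and the Lcn2 row is the darkest in all 8 knockout libraries.

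The libraries held an order over the 10 markers, seen in the colour plot of levels by library. The median over the 10 genes of log2 CPM minus the HET PBS mean was 1.81 in KO PBS replicate 1, 1.2 in replicate 2, 0.37 in replicate 3 and 0.7 in replicate 4. It was 0.49, 0.38, 0.82 and 0.6 in the KO antimiR-21 libraries and 0.41, -0.29 and -0.11 in the HET PBS libraries. KO PBS replicate 3 was thus below HET PBS replicate 1 on this median, although its Lcn2 was the second highest of all libraries. HET PBS replicate 2 was the lowest of the 11 for 6 markers.

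By Pearson's r of log2 CPM over the 11 libraries, among loci of at least 5 CPM on average, the loci most like each marker were as follows, with r taken as a description of libraries that share the group differences. Lcn2 was most like the joint locus of Serpina3m and Serpina3n (r = 0.958), genes of acute-phase protease inhibitors, and Socs3 (0.928), a cytokine signalling inhibitor. Vcam1 was most like complement C3 (0.976) and Abp1 (0.972), and Cd44 was most like Mgp (0.957), a calcification inhibitor, and C3 (0.948). Spp1 was most like Aldh1a2 (0.981), a retinoic acid synthesis enzyme, and Ctsc (0.972), a lysosomal protease. Anxa2 was most like Anxa1 (0.974), another annexin, and Tmem98 (0.971).

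Dcdc2a was most like Csf1 (0.954), a macrophage growth factor, and Vegfc (0.944), a lymphatic growth factor. Havcr1 was most like Galnt2 (0.923), a glycosylation enzyme, and Cxcl10 (0.917), an interferon-induced chemokine. Clu was most like Abi2 (0.943) and Ano9 (0.933), Cd24a like Olfml3 (0.965) and Rftn1 (0.965), and Prom1 like Sema4a (0.965) and Fzd3 (0.955), a Wnt receptor. C3, shared by Vcam1 and Cd44, had means of 31.3 CPM in HET PBS, 186.4 CPM in KO PBS and 118.9 CPM in KO antimiR-21.

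A wider list of 40 other genes known from injured tubules, of which 36 were tested, had 35 above 0 in KO PBS against HET PBS and 18 higher at an unadjusted p under 0.05, with a median log2 difference of 0.53. Over all loci 46.5% were above 0 in this comparison, 4.21% were higher at that p and the median was -0.02. The lists that follow are read beside the same shares. This list and those that follow were chosen with earlier results of these data known, so their counts are a description. Timp1, an inhibitor of matrix proteases, stood at 0.614 ± 0.317 CPM (SD, n = 3) in HET PBS and 6.58 ± 5.84 CPM (n = 4) in KO PBS (log2 difference 3.46, SE 0.638, adjusted p = 0.295 by edgeR), with 15.3 CPM in replicate 1 and 3.26 to 4.04 in the others. Cxcl1, a chemokine for neutrophils, stood at 1.23 ± 0.359 and 4.65 ± 2.99 CPM (1.89, SE 0.428, adjusted p = 0.37). With antimiR-21 4 of the 36 were lower than in KO PBS at an unadjusted p under 0.05, beside 3.46% of all loci. The median was -0.17, beside 0 over all loci. Itgb6, the epithelial integrin chain that activates TGF-beta, stood at 154.6 ± 3.9 CPM (SD, n = 4) in KO PBS and 82.1 ± 31.4 CPM (n = 4) in KO antimiR-21 (-0.91, SE 0.269, adjusted p = 0.385 by edgeR). The Itgb6 ranges did not overlap, and lower ranges without overlap were found in 1.95% of all loci. Cdkn1a, the cell cycle inhibitor p21, stood at 20.1 ± 1.75 and 13 ± 3.71 CPM (-0.62, SE 0.245, adjusted p = 0.531).

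A list of 17 regulators of acute-phase and injury genes, inhibitors such as Socs3 included, had 14 tested. All 14 were above 0 in KO PBS against HET PBS (46.5% of all loci), and 8 were higher at an unadjusted p under 0.05 (4.21% of all loci). Socs3 stood at 2.27 ± 0.812 CPM (SD, n = 3) in HET PBS and 11.6 ± 6.3 CPM (n = 4) in KO PBS (2.35, SE 0.412, adjusted p = 0.247 by edgeR), and Fos, a subunit of AP-1, at 0.948 ± 0.44 and 2.82 ± 0.869 CPM (1.59, SE 0.424, adjusted p = 0.456). With antimiR-21 the median of this list was 0.02 against KO PBS. Il6ra, the interleukin-6 receptor, differed by 0.42 (SE 0.27, adjusted p = 0.759) and the joint locus of Cebpd and 2310008H04Rik by 0.33 (SE 0.224, adjusted p = 0.769).

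Of the annexins and S100 partners of Anxa2, 11 of 11 were tested and 9 were above 0 in KO PBS against HET PBS. At an unadjusted p under 0.05 4 were higher (4.21% of all loci), among them Anxa3 (0.76, SE 0.178, adjusted p = 0.377 by edgeR) and S100a4 (0.79, SE 0.216, adjusted p = 0.456). With antimiR-21 2 were higher than in KO PBS at an unadjusted p under 0.05, beside 4.76% of all loci: Anxa7 (0.32, SE 0.116, adjusted p = 0.492) and Anxa11 (0.17, SE 0.0736, adjusted p = 0.592).

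Of the integrins, hyaluronan enzymes and linker proteins that partner osteopontin, VCAM-1 and CD44, 17 were tested. In KO PBS against HET PBS 14 of the 17 were above 0, 0 were higher by edgeR at an unadjusted p under 0.05, and the median was 0.15. The 2 with the smallest p were Rdx, a membrane-cytoskeleton linker (-0.22, SE 0.124, adjusted p = 0.774 by edgeR), and Itgb5, an integrin chain (0.17, SE 0.105, adjusted p = 0.792). With antimiR-21 2 of the 17 were lower at an unadjusted p under 0.05, beside 3.46% of all loci. They were Itgb6, given above, and Hmmr, a hyaluronan-binding protein of dividing cells. Hmmr stood at 15.3 ± 3.87 CPM (SD, n = 4) in KO PBS and 5.94 ± 2.59 CPM (n = 4) in KO antimiR-21 (-1.37, SE 0.367, adjusted p = 0.334 by edgeR).

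Among receptors and relatives of lipocalin-2, clusterin and KIM-1, 5 of 12 tested were above 0 in KO PBS against HET PBS and 3 were higher at an unadjusted p under 0.05 (4.21% of all loci), with a median of -0.08. Icam1, a leukocyte adhesion receptor like Vcam1, differed by 0.56 (SE 0.177, adjusted p = 0.536 by edgeR) and Dclk1, a doublecortin-like kinase, by 0.81 (SE 0.328, adjusted p = 0.666). With antimiR-21 none was lower at an unadjusted p under 0.05, beside 3.46% of all loci. The smallest p belonged to Slc22a17, a lipocalin-2 receptor (0.13, SE 0.0889, adjusted p = 0.769 by edgeR), and Sele, E-selectin (0.55, SE 0.413, adjusted p = 0.788).

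Markers of cell types were summed in each library as a description beside these genes, and whether they go together was not tested. The summed level of 10 proximal tubule markers (of 11 listed) ran from 24304.4 to 41498.5 CPM in HET PBS, from 19012 to 33733.5 in KO PBS and from 22165.6 to 35972.7 in KO antimiR-21, and was lowest of all in KO PBS replicate 1. Kap alone ran from 5250.3 to 23423.6 CPM, with means of 16920.2 in HET PBS, 11809.3 in KO PBS and 9996.9 in KO antimiR-21, while Slc13a1 had means of 505.8, 610.8 and 576.4 CPM. Within each group the libraries with Y-linked reads had the higher proximal tubule sums, as in KO antimiR-21 with 35972.7 CPM in replicate 4 and 22165.6 to 22246.6 CPM in the other 3. Kap had the widest range of these markers, ahead of the joint locus of Pfn3 and Slc34a1 at 4966.8 to 8006.5 CPM. The part of Kap in this order was not tested. The 9 fibroblast and pericyte markers summed to 476 to 748.3 CPM in HET PBS, 807.2 to 1538.8 in KO PBS and 759.4 to 1132.1 in KO antimiR-21, highest in KO PBS replicate 1. Col3a1, the largest, had means of 166.9 CPM in HET PBS, 390.6 in KO PBS and 253.9 in KO antimiR-21. Col1a1, Col1a2, Lum, Acta2 and Vim also had a lower mean in KO antimiR-21 than in KO PBS. Pdgfra (39.9, 50.2 and 65.4 CPM), Dcn (42.3, 69 and 100.5 CPM) and Pdgfrb (56.4, 66.8 and 71.9 CPM) had a higher one. The 10 macrophage markers (of 12 listed) summed to 293.6 to 346.3, 361.6 to 455.8 and 355.1 to 412.3 CPM, again highest in KO PBS replicate 1. The joint locus of Csf1r and Hmgxb3 alone took 173.3 to 224.9 CPM of the macrophage sums. Its means were 208.3 CPM in HET PBS, 213.6 in KO PBS and 193.2 in KO antimiR-21. The heterozygous ranges of the fibroblast and macrophage sums did not overlap with the knockout ranges. The part of these 2 sums in the levels of Vcam1, Cd44 and Spp1 was not tested.

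Neutrophils carry lipocalin-2 in their granules. The 11 neutrophil markers (of 12 listed) summed to 17.2 to 23.7 CPM in HET PBS, 18.8 to 24.6 in KO PBS and 17.7 to 24.6 in KO antimiR-21, with overlapping ranges. Mpo alone took 13.3 to 19.1 CPM of these sums. Elane was at 0 in 9 of the 11 libraries and Camp in 7, and S100a8 was at most 0.388 CPM. The part of neutrophils in the level of Lcn2 was not tested. Sums of the other lists overlapped between HET PBS and KO PBS for the thick ascending limb, distal convoluted tubule, collecting duct, podocyte, lymphocyte and endothelium. The 4 erythroid markers (of 6 listed) ran lower in KO PBS, at 22.2 to 35.2 CPM, than in HET PBS, at 48.7 to 61.6.

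Each marker was counted under its own name and none shared its counts with another row. The library kit does not mark strand, so reads from overlapping or antisense genes cannot be told apart. Anxa2, Prom1 and Vcam1 each overlap an annotated antisense transcript, and Anxa2 also overlaps the microRNA gene Mir3109. Spp1 overlaps Gm42793 and Prom1 also overlaps Gm42716, each on the same strand. Cd44 overlaps the small nuclear RNA gene Gm23731 and Dcdc2a the processed pseudogene Gm11348, each on the opposite strand.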

How the data were processed

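Messenger RNA of 11 whole kidneys was sequenced from TruSeq RNA v2 libraries, which carry no strand mark; the kit is named per the labels' protocols. Tools and build named in the submitters' processing notes, without roles, are HTSeq 0.5.4p5, STAR, SAMtools, FastQC, limma and mm10; the sources used here do not give the annotation or the way of counting. The deposited files hold estimated counts in steps of 0.5 (47.4% of values above 0 not whole). A log2 matrix deposited by the authors served as an alternative: it differs from log2 CPM by a constant per library.

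Rows with identical counts in all libraries (1513 pairs, total of at least 50) were joined, so that shared reads entered once. Counts were rounded, filtered with filterByExpr, TMM-scaled and tested with edgeR 4.0.16 (R 4.3.3): robust quasi-likelihood fit to all 11 libraries, 3 groups, two-sided, Benjamini-Hochberg over 14380 loci. The biological coefficient of variation was 0.215. CPM used TMM-scaled library sizes, and log2 CPM a prior count of 2. DESeq2 1.42.0, limma 3.58.1, other scalings and filters, a covariate for Y-linked reads, a replicate block and leaving out each library were alternatives. Libraries of a group did not agree within sampling noise, so each counted as 1 replicate.

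The 10 genes, the lists and the joining of rows were chosen with earlier results of these data known. Named genes are each marker, the 2 loci with the smallest p per list in each of the first 2 comparisons, and the 2 loci most like each marker. The interaction with Y-linked reads and the seed search were added after seeing the data. Promoters and the miRNA are from RefSeq (GRCm38.p6), genes and 3′ UTRs from GENCODE vM21 (GRCm38).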

Additional observations from a re-analysis of the deposited data

Results flagged for a closer look

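Dixon's criterion at 95% was applied to 20 sets of 4 libraries (10 genes in the KO PBS and KO antimiR-21 groups). Chance meets it in about 1 of 20. It marked 3 values as far from the rest of their group, those of Cd44 and Dcdc2a in the same library. Lcn2 stood at 24.3 CPM in KO antimiR-21 replicate 2 and at 52.7 to 56.6 CPM in the other 3. Cd44 stood at 17.2 CPM in KO PBS replicate 1 and at 6.52 to 6.95 CPM in the others. Dcdc2a stood at 74.3 CPM in KO PBS replicate 1 and at 47.3 to 51.7 CPM in the others. KO PBS replicate 1 was also the library with the highest summed fibroblast (1538.8 CPM) and macrophage (455.8 CPM) markers, whose part in these levels was not tested.

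The difference of KO antimiR-21 from KO PBS had opposite signs in libraries without and with Y-linked reads for Havcr1 (interaction 2.44 on the log2 scale, adjusted p = 0.267 by edgeR) and Spp1 (1.32, adjusted p = 0.353). In both genes every treated library without Y-linked reads was below both untreated ones, and the 1 treated library with them was above both untreated ones. Neither interaction passed after adjustment over all loci.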

How the results depend on the processing

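Of the 570 values of single markers under the alternatives, 553 kept their direction and their side of the threshold, 9 passed the threshold where the value reported above did not, and 8 changed sign. The cause of these changes was not tested. In KO antimiR-21 against KO PBS the sign turned for Spp1 (0.03), Cd44 (0.11) and Anxa2 (0.14) without KO PBS replicate 1 and for Anxa2 (0.05) without KO antimiR-21 replicate 2. In KO antimiR-21 against HET PBS it turned for Clu (-0.02) and Prom1 (-0.09) with a covariate for Y-linked reads and for Clu (-0.06) and Prom1 (-0.08) without HET PBS replicate 2.

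Called loci in KO PBS against HET PBS, KO antimiR-21 against KO PBS and KO antimiR-21 against HET PBS numbered 0, 0 and 1 with edgeR, and 84, 138 and 74 with DESeq2, which called 4, 1 and 2 markers and gave 2 markers lower at an unadjusted p under 0.05 in the second comparison. KO PBS against HET PBS had 1 called locus with limma on the authors' log2 matrix and 3 with the covariate for Y-linked reads. KO antimiR-21 against HET PBS had 0 with limma-voom, 2 with the authors' matrix and 2 with the covariate. With the replicate block, 2, 26 and 4 loci and 0 markers were called. Of 10 same-number pairs 6 correlated above 0.1, and the correlations ran from -0.44 to 0.63. Those 6 pairs were alike in the presence of Y-linked reads and the other pairs were not. The correlations therefore cannot show whether the numbers pair the libraries.

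With 1 library left out, called loci ranged from 0 to 2, 0 to 16 and 0 to 4 in the 3 comparisons, and called markers from 0 to 1 in both comparisons with HET PBS and stayed at 0 in the other. Markers higher at an unadjusted p under 0.05 ranged from 5 to 9 in KO PBS against HET PBS and 3 to 5 in KO antimiR-21 against HET PBS, and lower ones from 1 to 3 in KO antimiR-21 against KO PBS. Markers without overlap ranged from 5 to 8 in KO PBS and 4 to 6 in KO antimiR-21, each against HET PBS. Of the markers whose sign turned, Spp1 ran from -0.8 to 0.03, Cd44 from -0.49 to 0.11 and Anxa2 from -0.1 to 0.14 against KO PBS, and Clu from -0.06 to 0.33 and Prom1 from -0.08 to 0.45 against HET PBS. The fewest counts of a marker in a library were 51, for Lcn2 in HET PBS replicate 3, where relative counting error was largest.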
